A study of Homo sapiens with 6 samples.

Results

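The genes described here encode the proteins of the mitochondrial ribosome. They were defined by name and annotation, as the protein-coding genes of GENCODE release 44 named MRPL or MRPS followed by a digit. The set was chosen with earlier results of these data known. Of the 78 annotated genes of this kind, 65 had at least 1 deposited edit, out of 7684 genes with edits in the series. INSCRIBE marks the RNA near a chosen RNA-binding protein with C-to-U edits. A purified fusion of the cytosine deaminase APOBEC1 and a nanobody (APO1-Nb) is added to fixed cells, where it recognises the antibody bound to the protein of interest, here the splicing regulator RBFOX2. Full-length RNA of HEK293T cells, a human embryonic kidney line that the cell line field calls HEK293XT, was then read on the PacBio platform, so each edit belongs to an mRNA isoform.

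There were 3 groups of 2 libraries each. RBFOX2-INSCRIBE received the RBFOX2 antibody and APO1-Nb, cells of the enzyme-only control met APO1-Nb with no such antibody, and the buffer-only control received neither. All 6 libraries came from this established line without any genetic change of RBFOX2. The titles number the enzyme-only libraries 2 and 3, and these numbers are used below. The methods describe replicates as separate wells of HEK293T cells on different slides, without naming those used for long reads, so p-values measure the spread between such wells of a single line.

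The mitochondrial ribosome translates the few messenger RNAs of the mitochondrial genome, all of which encode subunits of the respiratory chain and ATP synthase. Its ribosomal RNAs are made in the mitochondrion, but every protein of both subunits is encoded in the nucleus, translated in the cytosol and imported. Some of these proteins are homologues of bacterial ribosomal proteins, and others are found only in mitochondrial ribosomes. RBFOX2 binds RNA at UGCAUG and is best known for its control of alternative splicing.

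The measure was the number of distinct edited Cs, counted once per gene and library on the strand of the gene and within the exons of its listed isoforms. Divided by all exonic Cs of the gene it gives editsC, which allows genes to be compared per length. The libraries listed 78381 to 216646 pairs of isoform and edited position, most in RBFOX2-INSCRIBE. No read numbers accompany the edit fractions, so depth is unknown, no confidence interval was computed, and more reads of a transcript cannot be told apart from more editing of each read. KRT18 held 4 to 32 edited Cs per library and VIM 0 to 6, whereas KRT8 and the markers of other tissues (HBB, ALB, PTPRC and CD3E) held none.

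Edited Cs of the mitochondrial ribosomal protein genes numbered 825 and 791 in RBFOX2-INSCRIBE, 621 and 651 in enzyme-only replicates 2 and 3, and 307 and 310 in the buffer-only control. The 3 groups did not overlap in this sum, but the totals over all genes had the same order. These totals were 200663 and 205830, 86019 and 153740, and 72723 and 71421. As a share of its total, RBFOX2-INSCRIBE was lowest, at 0.411% and 0.384%. The shares were 0.722% and 0.423% in the enzyme-only control, and 0.422% and 0.434% in the buffer-only control. Enzyme-only replicate 2 thus stood apart from the other 5 libraries. These genes held 0.722% of all its edited Cs, against 0.384% to 0.434% elsewhere, and it was the only library in which all 65 genes were listed, against 50 to 57. The high share was not particular to these genes. In this library 1100 of 86019 edited Cs lay in the coding sequence of cytosolic ribosomal protein genes, against 288 to 538 elsewhere. For nuclear-encoded respiratory chain genes the number was 491, beside 492 of 153740 in enzyme-only replicate 3 and 236 to 538 elsewhere. A typical gene held few edits. The median per gene was 4 and 3 in RBFOX2-INSCRIBE, 6 and 3 in the enzyme-only control and 3 and 2 in the buffer-only control.

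The edits were concentrated in a handful of genes. MRPL42, MRPL3, MRPL19, MRPS10 and MRPL37, the 5 genes with the most edited Cs over all libraries, together held 45.8% and 49.1% of the edits of these genes in RBFOX2-INSCRIBE, 30.8% and 46.7% in the enzyme-only control, and 33.9% and 37.1% in the buffer-only control. By contrast MRPS12, the homologue of bacterial S12 at the decoding centre, had no edit on its own strand. No edit was listed for MRPL2, MRPL33, MRPL34, MRPL36, MRPL45, MRPL49, MRPL52, MRPL53, MRPL54, MRPS11, MRPS18B, MRPS22 or MRPS36.

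MRPL42, a large-subunit protein without a bacterial counterpart (hg38 chr12:93467514-93516214, plus strand), held 133 and 146 edited Cs in RBFOX2-INSCRIBE, 48 and 110 in the enzyme-only control and 36 and 32 in the buffer-only control. The 3 groups were fully separated, with enzyme-only replicate 3 close to RBFOX2-INSCRIBE. MRPL3, the homologue of bacterial L3 in the large subunit (chr3:131462212-131502971, minus strand), held 81 and 79, 51 and 69, and 23 and 35 edited Cs in the same order. Mean editsC in RBFOX2-INSCRIBE was 24.1% ± 0.426 (SD, n = 2) for MRPL3 and 4.61% ± 0.304 (SD, n = 2) for MRPL42, whose 3024 exonic Cs include 2426 in the far 3′ UTR without an edit in any library. In the coding sequence alone, MRPL42 had 36 and 30 of 88 Cs edited in RBFOX2-INSCRIBE and MRPL3 had 54 and 48 of 206. MRPL19, the homologue of bacterial L19 (chr2:75646783-75662206, plus strand), held 105 and 77, 37 and 61, and 12 and 8 edited Cs, again without overlap between groups.

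The next genes of the large subunit by number of edited Cs were MRPL37, MRPL50 and MRPL35. MRPL37, specific to mitochondria, held 29 and 41 edited Cs in RBFOX2-INSCRIBE, 26 and 25 in the enzyme-only control, and 18 and 28 in the buffer-only control, so that the control groups overlapped. MRPL50, also specific to mitochondria, held 36 and 29, 18 and 28, and 8 and 9. MRPL35, the homologue of bacterial L35, held 40 and 36, 13 and 20, and 10 and 7, and was separated in all 3 groups.

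Among the genes of the small subunit, MRPS10, the homologue of bacterial S10, held 30 and 45 edited Cs in RBFOX2-INSCRIBE, 29 and 39 in the enzyme-only control, and 15 and 12 in the buffer-only control. Both groups with APO1-Nb overlapped for MRPS10 and lay above the buffer-only libraries. MRPS35, specific to mitochondria, held 37 and 46, 12 and 22, and 9 and 14. MRPS9, the homologue of bacterial S9 (chr2:105038069-105099960, plus strand), held 28 and 18, 9 and 9, and 3 and 3, without overlap between any of the groups. MRPS16, the homologue of bacterial S16, varied more between replicates, with 19 and 39, 9 and 26, and 16 and 14.

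**Figure D1:**
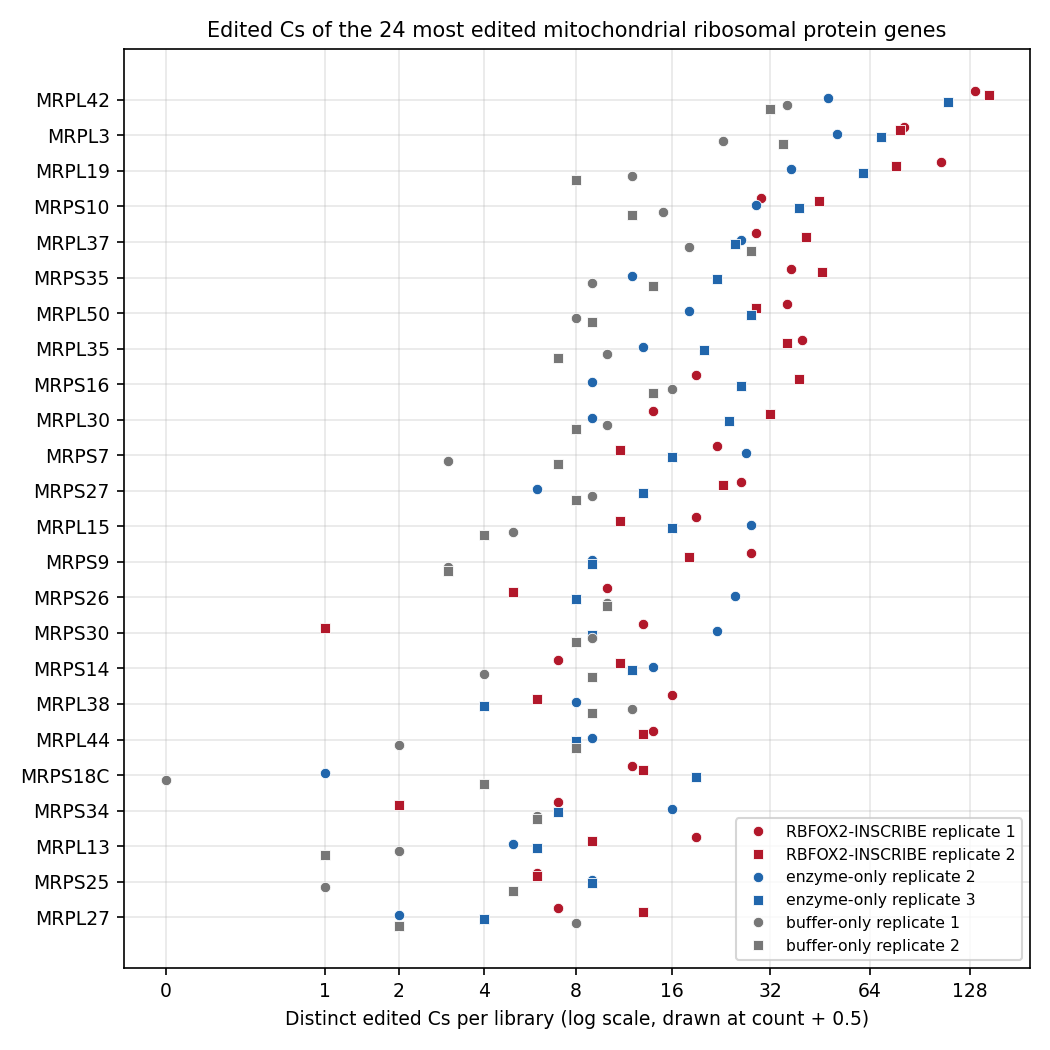
Distinct edited Cs per library of the 24 mitochondrial ribosomal protein genes with the most edited Cs, 1 point per library, on a log scale drawn at the count + 0.5. RBFOX2-INSCRIBE (red) lies to the right of the buffer-only control (grey) for MRPL42, MRPL3 and MRPL19, whereas for MRPS26, MRPS30 and MRPS34 the highest library is enzyme-only replicate 2 (blue circle).

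Grouped by subunit and origin, and with the Cs of each class pooled, editsC was highest in RBFOX2-INSCRIBE in each class. The 26 large-subunit genes with a bacterial homologue had 3.12% and 2.88% of their Cs edited in RBFOX2-INSCRIBE, 2.37% and 2.33% in the enzyme-only control and 1.09% and 0.943% in the buffer-only control. The 16 large-subunit genes classed as mitochondria-specific, which here include the S18 homologue MRPS18A, followed the same order. They had 3.15% and 2.91%, 2.00% and 2.38%, and 1.2% and 1.25%. Of the genes of the small subunit, the 15 with a bacterial homologue had 2.12% and 2.34%, 1.79% and 2.06%, and 0.851% and 0.897%. The 8 specific to mitochondria had 1.93% and 1.89%, 1.79% and 1.5%, and 0.748% and 0.976%. Median edited Cs per gene did not follow this order. For the classes as listed, they were 3.5, 4.5, 4 and 6.5 in RBFOX2-INSCRIBE replicate 1 and 3.5, 2, 3 and 5.5 in replicate 2. Enzyme-only replicate 2 had 7, 5.5, 3 and 9.5, and replicate 3 had 2.5, 2.5, 3 and 8.

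The first comparison asks which genes carried more edits where the antibody directed the enzyme to RBFOX2 than where the enzyme was free. Of the mitochondrial ribosomal protein genes, 30 averaged 5 or more edited Cs over these 4 libraries and were tested, and no gene passed an adjusted p of 0.05 (limma on log2 of edited Cs + 0.5 per C, Benjamini-Hochberg over all genes), with 2 at an unadjusted p under 0.05. The background was almost as low, with 6 of 5088 genes called (0.118%). The largest log2 differences in favour of RBFOX2-INSCRIBE were those of MRPL27 (1.58, SE 0.82, adjusted p = 0.299 by limma), MRPS27 (1.41, SE 0.71, adjusted p = 0.294), MRPS35 (1.32, SE 0.63, adjusted p = 0.272), MRPS9 (1.27, SE 0.65, adjusted p = 0.294) and MRPS18C (1.26, SE 0.89, adjusted p = 0.407). MRPL27, the homologue of bacterial L27, held 7 and 13 edited Cs in RBFOX2-INSCRIBE, 2 and 4 in the enzyme-only control, and 8 and 2 in the buffer-only control. MRPS27, a pentatricopeptide repeat protein of the small subunit, held 26 and 23, 6 and 13, and 9 and 8. MRPS18C, 1 of the human homologues of bacterial S18, held 12 and 13, 1 and 19, and 0 and 4, and its 2 enzyme-only libraries lay on either side of RBFOX2-INSCRIBE.

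At the other end, 5 genes had the lowest log2 differences. MRPS30, which despite its name belongs to the large subunit, held 13 and 1 edited Cs in RBFOX2-INSCRIBE, 22 and 9 in the enzyme-only control and 9 and 8 in the buffer-only control (log2 difference -1.70, SE 1.00, limma adjusted p = 0.338). MRPS34, MRPS31 and MRPS26, all mitochondria-specific proteins of the small subunit, had log2 differences of -1.36, -1.09 and -0.95. MRPS26 held 10 and 5, 25 and 8, and 10 and 10 edited Cs, and MRPS34 held 7 and 2, 16 and 7, and 6 and 6. For both, enzyme-only replicate 2 was the highest of the 6 libraries. MRPL12, the homologue of the bacterial stalk protein L7/L12 that contacts translation factors, held 4 and 4, 13 and 5, and 3 and 5 (log2 difference -0.94).

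Across the tested genes the median log2 difference was 0.47, with 18 of 30 higher in RBFOX2-INSCRIBE, beside a median of 0.85 and 85.6% higher over all genes tested. With a minimum mean of 1 edited C, which admits 60 genes, the median turned to -0.23 with 27 of 60 higher, beside 0.78 over all genes. After scaling all libraries to the same total of edited Cs, the median of all genes moved to 0.05 and that of the mitochondrial ribosomal protein genes turned to -0.34, with 10 of 30 higher. The median fell to 0.14 without enzyme-only replicate 2, and to 0.10 without RBFOX2-INSCRIBE replicate 2. Without enzyme-only replicate 3, 6 genes were called higher in RBFOX2-INSCRIBE (MRPS35, MRPS27, MRPL3, MRPL35, MRPS18C and MRPL42), while 1690 of 5115 genes were called over the whole table, with the lone enzyme-only library assumed to vary like the RBFOX2-INSCRIBE libraries.

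For 12 of the 30 genes the lower RBFOX2-INSCRIBE count exceeded the higher enzyme-only count, beside 51.8% of all genes tested. These were MRPL3, MRPL13, MRPL19, MRPL27, MRPL35, MRPL37, MRPL42, MRPL44, MRPL50, MRPS9, MRPS27 and MRPS35. The reverse order was seen for 5 of 30, MRPL12, MRPL16, MRPS14, MRPS25 and MRPS31, beside 3.56% of all genes. Their counts were low. MRPS31 held 3 and 3 edited Cs in RBFOX2-INSCRIBE against 6 and 8 in the enzyme-only control, and MRPS25 held 6 and 6 against 9 and 9.

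Other gene families gave a scale for these medians. The other genes of mitochondrial translation (39 tested) had a median log2 difference of 0.58, with 33 higher in RBFOX2-INSCRIBE. Within them, the mitochondrial aminoacyl-tRNA synthetases, which charge the transfer RNAs, were higher for 16 of 16 with a median of 0.80, the assembly and rRNA modification factors for 10 of 12 with a median of 0.42, the translation factors for 5 of 8 with a median of 0.28, and mitoribosome proteins with other names for 2 of 3 with a median of 0.48. Genes of the nuclear-encoded respiratory chain (29 tested) had a median of -0.14, with 14 higher. The cytosolic ribosomal protein genes (32 tested) had a median of -0.76, with 6 higher. None of the genes of these families passed the adjusted threshold in this comparison, and differences between the families were not tested.

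The second comparison sets RBFOX2-INSCRIBE against cells without antibody and enzyme. It thus includes any editing by APO1-Nb, directed or not, which cannot be told apart from a difference in reads. Here 14 of 23 tested mitochondrial ribosomal protein genes were called (limma, adjusted p under 0.05), all higher in RBFOX2-INSCRIBE, at a background of 2936 of 4804 genes (61.1%). The largest differences among the large-subunit genes were those of MRPL19 (log2 difference 3.13, SE 0.40, limma adjusted p = 0.000943) and MRPL13, the homologue of bacterial L13 (2.81, SE 0.49, adjusted p = 0.00289), followed by MRPL35 (2.12), MRPL42 (2.02), MRPL50 (1.87), MRPL44 (1.60), MRPL15 (1.59) and MRPL3 (1.48). Genes of the small subunit were led by MRPS18C (3.11, SE 1.00, limma adjusted p = 0.0301) and MRPS9 (2.71, SE 0.33, adjusted p = 0.000846), followed by MRPS35 (1.83), MRPS7 (1.65), MRPS27 (1.47) and MRPS10 (1.42). MRPL13 held 19 and 9 edited Cs in RBFOX2-INSCRIBE, 5 and 6 in the enzyme-only control and 2 and 1 in the buffer-only control. MRPL44, whose protein has a fold related to ribonuclease III, held 14 and 13, 9 and 8, and 2 and 8, so that its second buffer-only library equalled an enzyme-only library.

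The 9 tested genes that were not called had log2 differences from -0.998 for MRPS30 to 1.2 for MRPL30, and 4 of them (MRPL38, MRPS26, MRPS30 and MRPS34) were below 0. MRPL38, specific to mitochondria, held 16 and 6 edited Cs in RBFOX2-INSCRIBE, 8 and 4 in the enzyme-only control, and 12 and 9 in the buffer-only control, so that RBFOX2-INSCRIBE overlapped both controls and both buffer-only libraries lay above both enzyme-only libraries. Of the other families, 19 of 36 other genes of mitochondrial translation, 17 of 25 respiratory chain genes and 2 of 26 cytosolic ribosomal protein genes were called, all higher in RBFOX2-INSCRIBE. The median of the 23 genes was 1.48 beside 1.54 over all genes. When all libraries were scaled to the same total, these medians were 0.03 and 0.10, 12 of the 23 genes were higher, and no mitochondrial ribosomal protein gene and 15 of all genes (4 higher and 11 lower) were called. The MRPS18C difference rested on a count of 0 in buffer-only replicate 1: it was 1.53 (adjusted p = 0.0696 by limma) without that library and 4.70 without replicate 2. MRPL44 and MRPS7 also lost their call without buffer-only replicate 1, at 0.72 and 1.1, and MRPL15 without replicate 2, at 1.45. Without either RBFOX2-INSCRIBE library, 0 of these genes and 0 of all genes passed the adjusted threshold, while 10 and 8 of these genes had an unadjusted p under 0.05 without replicate 1 and replicate 2, respectively.

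The third comparison sets the enzyme-only control, with the free enzyme, against the buffer-only control. Here too, more reads cannot be told apart from more editing. None of 24 tested mitochondrial ribosomal protein genes passed the adjusted threshold (limma), 6 had an unadjusted p under 0.05, and 23 of 4209 genes were called (0.546%). In value, 23 of 24 were higher in the enzyme-only control, with a median log2 difference of 0.97 beside 0.69 over all genes. The largest differences belonged to MRPL19 (2.22, SE 0.72, adjusted p = 0.103), MRPL15 (2.12, SE 0.66, adjusted p = 0.0926) and MRPS7 (2.06, SE 0.68, adjusted p = 0.116). MRPL15, the homologue of bacterial L15, held 28 and 16 edited Cs in the enzyme-only control, 5 and 4 in the buffer-only control, and 19 and 11 in RBFOX2-INSCRIBE. MRPS7, the homologue of bacterial S7, held 27 and 16, 3 and 7, and 22 and 11. For both genes the highest of the 6 libraries was enzyme-only replicate 2. Scaled to the same total, the median of the 24 genes was 0.37 beside 0.04 over all genes, with 18 of 24 higher.

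**Figure D2:**
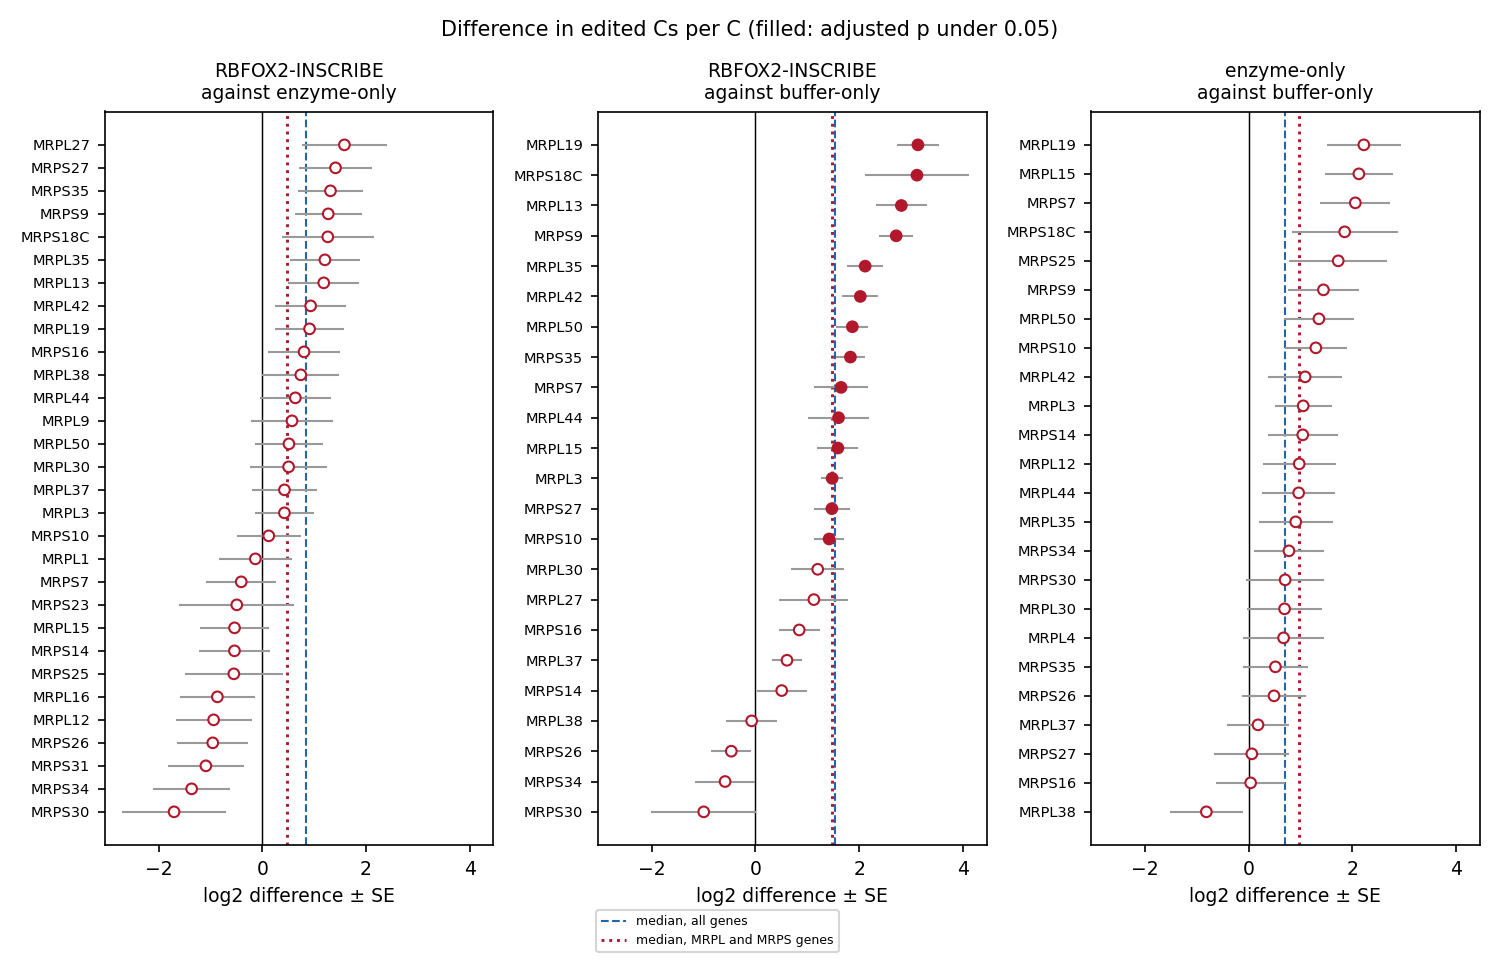
log2 difference in edited Cs per C with its SE for each tested mitochondrial ribosomal protein gene, with 1 panel per comparison, in which filled points passed an adjusted p of 0.05 (limma) and lines mark the medians of these genes (dotted) and of all genes (dashed). Called genes are present for RBFOX2-INSCRIBE against the buffer-only control (14 of 23), and the median of 0.47 against the enzyme-only control turned to -0.34 when libraries were scaled to the same total.

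A pair of genes of the translation machinery had few edits. MRPS18A, the S18 homologue of the large subunit, held 3 and 2 edited Cs in RBFOX2-INSCRIBE, 8 and 1 in the enzyme-only control, and 2 and 3 in the buffer-only control. MRPL58, a ribosome-bound peptidyl-tRNA hydrolase, held 1 and 0, 5 and 0, and 2 and 0. Neither gene reached the mean needed for a test in any comparison.

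Edits were next divided by transcript region. In the mitochondrial ribosomal protein genes, the 3′ UTR held 2.67 and 2.79 edited Cs per 100 Cs in RBFOX2-INSCRIBE, 1.33 and 2.02 in the enzyme-only control, and 0.865 and 0.703 in the buffer-only control. The coding sequence held 3.28 and 2.72, 3.53 and 2.55, and 1.37 and 1.61. RBFOX2-INSCRIBE was thus above both controls in the 3′ UTR, whereas the coding sequence of enzyme-only replicate 2 was the most densely edited of all. The ratio of 3′ UTR to coding sequence was 0.814 and 1.03 in RBFOX2-INSCRIBE, 0.377 and 0.792 in the enzyme-only control, and 0.630 and 0.437 in the buffer-only control. In all 6 libraries this ratio was lower than that of other protein-coding genes, which was 1.56 and 1.63, 1.06 and 1.24, and 0.842 and 0.832. The 16075 Cs in 3′ UTRs of the mitochondrial ribosomal protein genes include 2426 of MRPL42 without an edit, which lower their ratio. Whether other genes hold such stretches was not examined. The ratio of the mitochondrial ribosomal protein genes was higher than that of the cytosolic ribosomal protein genes (0.0949 to 0.372) and of the respiratory chain genes (0.196 to 0.412) in each library.

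Much of the excess of RBFOX2-INSCRIBE lay in genes with long 3′ UTRs. The 19 genes with an annotated 3′ UTR of at least 1000 nt held 453 and 487 edited Cs in RBFOX2-INSCRIBE, 230 and 376 in the enzyme-only control, and 135 and 127 in the buffer-only control, with MRPL42 and MRPL19 as the largest contributors. In the 46 other genes the numbers were 372 and 304, 391 and 275, and 172 and 183, and RBFOX2-INSCRIBE overlapped the enzyme-only control. RBFOX2-INSCRIBE over enzyme-only was 1.55 for the long group and 1.02 for the other, or 1.25 and 1.23 without enzyme-only replicate 2. The length was set after the values had been seen, and at 500 nt the ratios were 1.48 and 0.796.

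**Figure D3:**
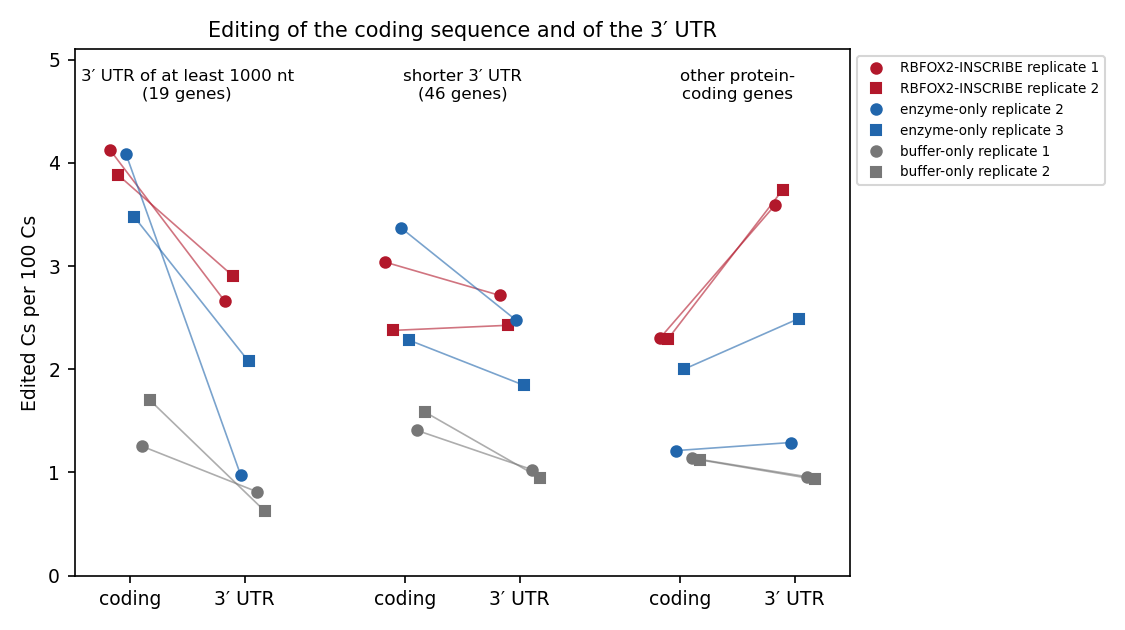
Edited Cs per 100 Cs in the coding sequence and the 3′ UTR, with 1 line per library, for the 19 mitochondrial ribosomal protein genes with a 3′ UTR of at least 1000 nt, the 46 others, and all other protein-coding genes. RBFOX2-INSCRIBE (red) exceeds the enzyme-only control (blue) in the 3′ UTR of the first set (2.66 and 2.91 against 0.977 and 2.08), and the red lines rise clearly from coding sequence to 3′ UTR in the other protein-coding genes.

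Single genes differed in where their edits lay. MRPL42 held 85 and 99 edited Cs of the 3′ UTR in RBFOX2-INSCRIBE, 18 and 75 in the enzyme-only control, and 25 and 24 in the buffer-only control, and 36 and 30, 24 and 24, and 8 and 7 in the coding sequence. MRPL19 showed an excess in the 3′ UTR (87 and 62, 18 and 44, and 8 and 6) but not over the enzyme-only control in the coding sequence (18 and 15, 19 and 17, and 4 and 2). MRPS9 and MRPL13 were edited mainly in the coding sequence. There MRPS9 held 25 and 14, 5 and 8, and 2 and 3 edited Cs, and MRPL13 held 16 and 9, 3 and 5, and 1 and 1. MRPL37 also held its edits in the coding sequence, with 26 and 39, 20 and 16, and 18 and 27.

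The annotated 3′ UTR of MRPL42 is 14993 nt long, and its edits occupied only the start of it. In the first 1000 nt there were 67 and 80 edited Cs in RBFOX2-INSCRIBE, 11 and 59 in the enzyme-only control, and 17 and 18 in the buffer-only control, among 150 Cs. The farthest edit lay 2566 nt after the stop codon, and the 2426 Cs beyond 3000 nt held none, although they enter the denominator of editsC. In MRPL19, by contrast, edits extended through the 3′ UTR of 6921 nt. Beyond 3000 nt MRPL19 held 43 and 33 edited Cs in RBFOX2-INSCRIBE, 5 and 19 in the enzyme-only control, and 4 and 1 in the buffer-only control.

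**Figure D4:**
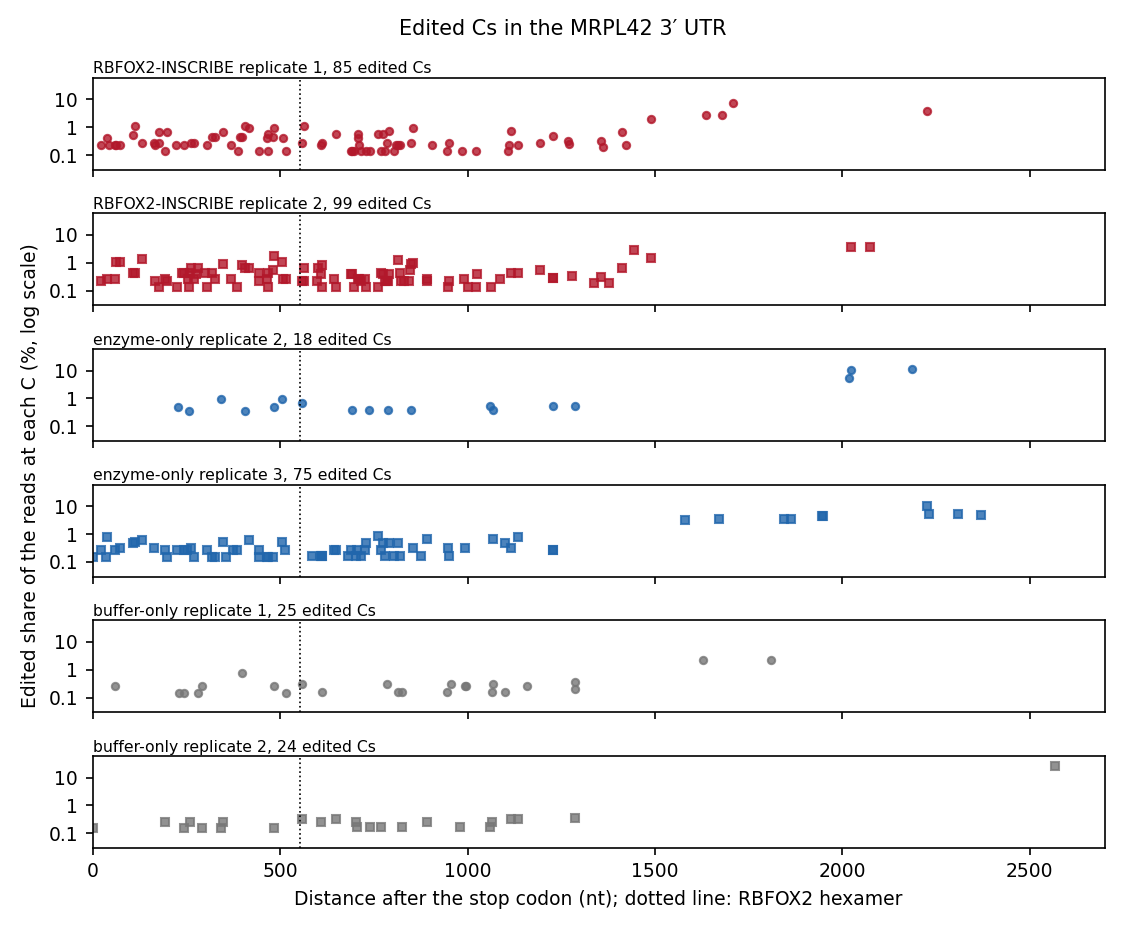
Edited Cs of the MRPL42 3′ UTR in each library, by distance after the stop codon (nt) and by the edited share of the reads (%, log scale), with the RBFOX2 hexamer at 552 nt as a dotted line. The libraries hold 85, 99, 18, 75, 25 and 24 edited Cs from top to bottom, most of them in the first 1500 nt at shares under 1%, and none beyond 2566 nt.

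The deposited values also give the edited share of the reads at each C. These shares were low. Medians over the edited Cs of the mitochondrial ribosomal protein genes were 0.741% and 0.690% in RBFOX2-INSCRIBE, 0.667% and 0.704% in the enzyme-only control, and 0.806% and 0.678% in the buffer-only control, so the groups overlapped. Shares of at least 10% were listed for 9 and 3, 7 and 4, and 0 and 3 edited Cs, and no position reached 10% in both libraries of a group. The highest, at 33.3%, were positions in the 3′ UTRs of MRPL11, MRPL57 and MRPS25, each listed in 1 library and resting on an unknown number of reads.

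Most edited positions were seen in 1 library only. Of 2757 distinct positions, 2192 were listed in 1 library, 414 in 2, 122 in 3, 26 in 4 and 3 in 5, and positions shared by all 6 had been removed by the authors as putative SNPs. The RBFOX2-INSCRIBE libraries shared 194 positions, which were 23.5% and 24.5% of their edits. MRPL42 alone held 91 of the 194, and MRPL3 held 30. The enzyme-only libraries shared 58 (9.34% and 8.91%) and the buffer-only libraries 18 (5.86% and 5.81%). Such sharing was not computed for other genes, and the groups also differed in their numbers of edited Cs. Of the positions common to both RBFOX2-INSCRIBE libraries, 84 in 18 genes were listed in no other library, 59 of them in 3′ UTRs and 22 in coding sequence. MRPL42 held 22 of these positions, MRPL19 12, MRPS35 9, MRPL3 8 and MRPL35 6. Positions of both enzyme-only libraries and no other numbered 30, led by MRPL19 with 8 and MRPL3 with 7, and those of both buffer-only libraries and no other numbered 13.

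The following 6 positions are shown because they had the highest edited shares among those found in both RBFOX2-INSCRIBE libraries and no other (positions on a chromosome excluded from sequence printing left aside). Read numbers are unknown, so a high share may rest on few reads and does not rank the positions by strength of editing. Each is written as RNA, 5′ to 3′, with 10 nt on either side of the edited C in capitals, and all lie in 3′ UTRs on hg38.
MRPS25, chr3:15051403-15051423, minus strand: auaguugagcCcaggaguucg
MRPL19, chr2:75658717-75658737, plus strand: gauagaugguCuguccuggag
MRPL27, chr17:50369325-50369345, minus strand: guauuuauuuCaaagaugcua
MRPL19, chr2:75656014-75656034, plus strand: ugagcaaauuCauggcuaagg
MRPL50, chr9:101388281-101388301, minus strand: uucaugugauCguuaggacag
MRPL9, chr1:151759800-151759820, minus strand: aagcuagaugCaguagaccga
In MRPS25 the edited share was 4.76% and 4.17% in RBFOX2-INSCRIBE replicates 1 and 2. The MRPL27 position lies 651 nt after the stop codon and was edited in 4.44% and 1.85% of reads. The MRPL19 positions, 3441 and 738 nt after the stop codon, were edited in 2.38% and 2.5%, and in 1.89% and 1.79% of reads. The shares were 1.52% and 2.06% in MRPL50, and 1.52% and 2.86% in MRPL9. In 4 of these 6 sequences the base before the edited C is U.

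The 4 positions with the highest shares among those of both buffer-only libraries and no other are shown for contrast, in the same form.
MRPL16, chr11:59810620-59810640, minus strand: cgcgcuagugCgccgcuccug
MRPL38, chr17:75904677-75904697, minus strand: cccgcuggggCcgaugcccaa
MRPL35, chr2:86211959-86211979, plus strand: uugaagugggCagggaagcag
MRPS16, chr10:73250243-73250263, minus strand: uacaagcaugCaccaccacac
All 4 have a G before the edited C. The first pair lies in coding sequence, with shares of 1.32% and 1.79% in MRPL16 and 0.935% and 1.74% in MRPL38. The second pair lies in 3′ UTRs, with shares of 0.585% and 0.704% in MRPL35 and 0.581% and 0.602% in MRPS16.

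APOBEC1 is known to prefer a C that follows A or U, and the base before the edited C was therefore compared between groups. Over all edited Cs of the mitochondrial ribosomal protein genes, A or U preceded 73.1% and 74.3% in RBFOX2-INSCRIBE, 59.9% and 66.5% in the enzyme-only control, and 40.7% and 41.0% in the buffer-only control, against 47.7% of all their exonic Cs. The 3 groups did not overlap, and the buffer-only libraries lay below the share of all Cs. G preceded 16.2% and 16.2%, 28.7% and 23.0%, and 40.4% and 38.4% of edited Cs, against 25.2% of all Cs. Other protein-coding genes had the same order, with A or U before 73.5% and 74.8%, 62.0% and 69.2%, and 42.0% and 42.6% of edited Cs. Among positions of both RBFOX2-INSCRIBE libraries and no other library A or U preceded 92.9%, among those of both enzyme-only libraries and no other 80.0%, and among those of both buffer-only libraries and no other 7.69%.

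**Figure D5:**
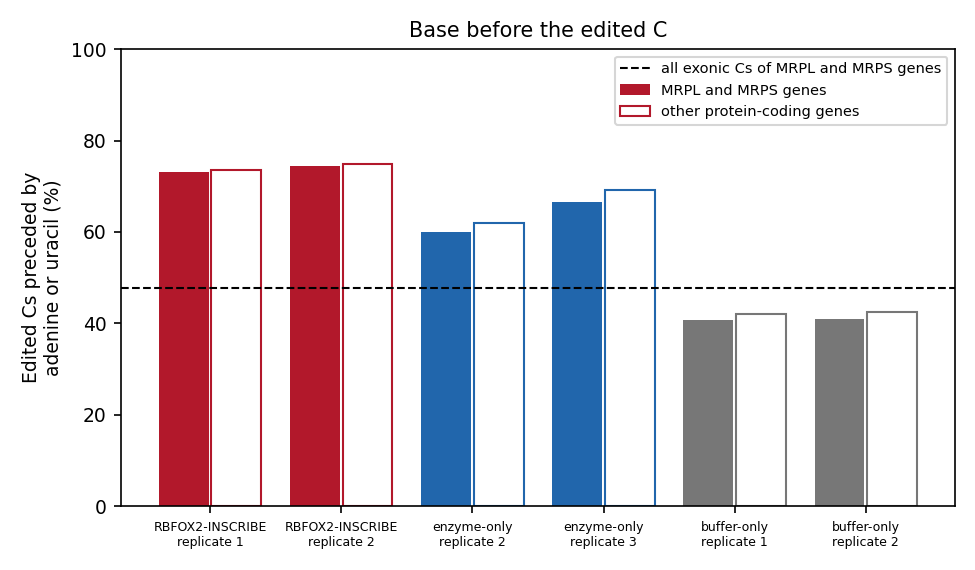
Share of edited Cs preceded by adenine or uracil (%) in each library, for the mitochondrial ribosomal protein genes (filled) and other protein-coding genes (open), with the share over all exonic Cs of the mitochondrial ribosomal protein genes (47.7%) as a dashed line. Both RBFOX2-INSCRIBE libraries are highest (73.1% and 74.3%), and both buffer-only libraries lie below the line (40.7% and 41.0%).

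UGCAUG was searched in the spliced sequence of every listed isoform, on the strand of the gene and with overlapping matches counted. It occurred 36 times in 22 of the 65 genes, 26 times in 3′ UTRs, 5 times in coding sequence and 5 times in noncoding isoforms. Edited Cs within 50 nt of it numbered 34 and 27 in RBFOX2-INSCRIBE, 8 and 14 in the enzyme-only control, and 10 and 5 in the buffer-only control. As a share of edited Cs these were 4.12% and 3.41%, 1.29% and 2.15%, and 3.26% and 1.61%, against 2.09% of all exonic Cs of these genes. The share over that of all Cs was therefore 1.97 and 1.63, 0.616 and 1.03, and 1.56 and 0.771. The first buffer-only library came close to RBFOX2-INSCRIBE in this ratio, on 10 edited Cs. Within 20 nt the ratios were 1.19 and 1.70, 0.789 and 0.941, and 2.00 and 1.19, on 3 to 11 edited Cs per library, and RBFOX2-INSCRIBE overlapped the buffer-only control. Other protein-coding genes, with far more edits, gave 1.79 and 1.81, 0.995 and 1.06, and 1.01 and 0.966.

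MRPS9 supplied the most UGCAUG edits of any gene in RBFOX2-INSCRIBE replicate 1. It held 12 and 2 edited Cs within 50 nt of the hexamer in RBFOX2-INSCRIBE, 1 and 4 in the enzyme-only control, and 0 and 1 in the buffer-only control. Replicate 2 did not show the high count of replicate 1, and without MRPS9 the numbers over all genes were 22 and 25, 7 and 10, and 10 and 4. The ratios to the share of all Cs were then 1.35 and 1.58 in RBFOX2-INSCRIBE, 0.558 and 0.760 in the enzyme-only control, and 1.60 and 0.636 in the buffer-only control, so that the first buffer-only library lay above both RBFOX2-INSCRIBE libraries. MRPL42 held 4 and 7, 1 and 2, and 2 and 1, MRPL35 held 3 and 5, 0 and 3, and 4 and 0, and MRPL30 held 1 and 4, 0 and 1, and 0 and 0. MRPL19 held 4 and 1 in RBFOX2-INSCRIBE and none in either control. Near the coding hexamer of MRPL37 there were edited Cs in all 6 libraries, with 1 and 3, 2 and 2, and 1 and 2.

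Of the hexamers near which both RBFOX2-INSCRIBE libraries had edited Cs, those of 5 genes are shown, as examples of the sequence around them, with 10 nt on either side, the hexamer in capitals.
MRPS9, coding sequence: uauucauuaaUGCAUGauguauaugg
MRPL42, chr12:93501774-93501779, plus strand: aauaaaaaugUGCAUGgcuuuccuga
MRPL35, chr2:86211147-86211152, plus strand: gcuugggcucUGCAUGcaugugacuu
MRPL35, chr2:86212105-86212110, plus strand: aauagaauuaUGCAUGaauuacuguu
MRPL30, chr2:99196656-99196661, plus strand: aguggcucuuUGCAUGaacacugugc
MRPL37, chr1:54218233-54218238, plus strand: gcucuauauuUGCAUGgugcugcgug
The coordinates are those of the hexamer. That of MRPS9 spans an exon junction on chromosome 2 and exists only in the spliced RNA. Those of MRPL42, MRPL35 and MRPL30 lie in 3′ UTRs, 552 nt after the stop codon in MRPL42, 478 and 1436 nt in MRPL35, and 950 nt in MRPL30, and a further hexamer of MRPL35 overlaps the first at 482 nt. MRPL19, whose hexamers at 643 and 1276 nt each had edits in 1 RBFOX2-INSCRIBE library, did not meet this criterion for a single hexamer.

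The 3 positions listed in 5 libraries all lay in the 3′ UTR of MRPL42, 244, 484 and 559 nt after the stop codon, with 10 nt on either side as follows.
MRPL42, chr12:93501456-93501476, plus strand: uaggacuuuuCcauagugcca
MRPL42, chr12:93501696-93501716, plus strand: ugugugucuaCugugauuuaa
MRPL42, chr12:93501771-93501791, plus strand: augugcauggCuuuccugaag
The second was edited in 0.917% and 1.77% of reads in RBFOX2-INSCRIBE, in 0.485% in enzyme-only replicate 2, and in 0.260% and 0.159% in the buffer-only control. The third follows the MRPL42 hexamer closely, and was edited in 0.274% and 0.221% of reads in RBFOX2-INSCRIBE, 0.692% in enzyme-only replicate 2, and 0.303% and 0.319% in the buffer-only control. The listed shares at this position were thus no lower without antibody and enzyme than in RBFOX2-INSCRIBE. They rest on unknown numbers of reads, and the position was not listed in enzyme-only replicate 3.

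Isoforms were compared last, since long reads assign each edit to one. Among 31 tested isoforms of these genes, none was called for RBFOX2-INSCRIBE against the enzyme-only control (limma, 1 at an unadjusted p under 0.05), at a background of 3 of 5717 isoforms (0.0525%). The 2 listed isoforms of MRPL42, of 15557 and 15560 nt, were both edited. The shorter held 106 and 116 edited Cs in RBFOX2-INSCRIBE, 35 and 79 in the enzyme-only control, and 26 and 22 in the buffer-only control, and the longer held 66 and 83, 14 and 56, and 12 and 12. Both isoforms separated the groups in the same order. They have 3023 and 3024 Cs and each a 3′ UTR of 14993 nt, so they are not independent observations. In MRPL27 the isoform with a 3′ UTR of 2119 nt held 5 and 12, 1 and 4, and 5 and 0, and that with a 3′ UTR of 225 nt held 2 and 1, 1 and 0, and 3 and 2. In MRPS18C nearly all edits belonged to the retained-intron isoform (11 and 13, 1 and 19, and 0 and 4), whereas the coding isoform held 1 edited C in RBFOX2-INSCRIBE replicate 1 and none elsewhere.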

How the data were processed

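Per the labels and the methods, C-to-U edits were called in PacBio Kinnex full-length RNA of HEK293T cells. The authors built and trimmed consensus reads, aligned them to hg38 with pbmm2, removed reads of low quality or on the incorrect strand, assigned reads to isoforms with IsoQuant (unique assignments only), and removed edits found across all samples as well as dbSNP positions. They deposited the edited fraction of reads at each position of each isoform, without read numbers, and neither the depth nor the precision behind a fraction can be given. The annotation used for the long reads is not given in the sources used here, and GENCODE release 44 was used (between 99.7% and 99.8% of the listed pairs matched). Every edited position was a C in the reference. Pairs on the strand of the isoform made up 92.0% to 96.9%, and pairs on the opposite strand were left out. Of the mitochondrial ribosomal protein genes 15 had such edits, 287 in all, led by MRPL19 with 58 and MRPS16 with 50.

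From these files the distinct edited Cs of each gene and isoform were counted, and log2((edited Cs + 0.5) / exonic Cs) was tested with limma 3.58.1 in R 4.3.3 (trend, robust, Benjamini-Hochberg over all genes) for genes averaging 5 or more edited Cs over the libraries of both groups. For a single value the smallest two-sided p of an exact permutation test of 2 against 2 libraries is 0.33, so such values are described beside their spread. A 3′ UTR or coding C was assigned by the listed isoforms, with coding sequence first. Tables and figures were made with Python 3.11.15, numpy 2.4.6, pandas 2.3.3 and matplotlib 3.10.9. Sequences came from the GENCODE release 44 transcripts. One hexamer with nearby edits is not reported here. The fit was tested on simulated data.

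Named genes were those called in any comparison (by rule the 12 with the smallest p in each), any with a position at a fraction of 0.1 or more in both libraries of a group (there was none), the 8 with the most edited Cs, the 5 with the highest and the 5 with the lowest log2 difference of RBFOX2-INSCRIBE from enzyme-only, those with edits near UGCAUG in both RBFOX2-INSCRIBE libraries, and MRPS18A, MRPS18B, MRPS18C, MRPL12, MRPL58 and MRPS12. Other names were added after their values were seen. The genes and the comparison lists were chosen with earlier results of these data known. Alternatives covered the pseudocount, the minimum of edited Cs, scaling, fitting all groups together, a replicate block, both strands, a minimum fraction, protein-coding isoforms only, the motif window, and leaving out each library.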

Additional observations from a re-analysis of the deposited data

How the results depend on the processing

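Depth is unknown for every library, so a gene without edits may have had few reads. Counts of called mitochondrial ribosomal protein genes changed as follows. For RBFOX2-INSCRIBE against the buffer-only control, 14 fell to 0 after scaling to the same total and to 2 with a minimum fraction of 0.02 (2 of 3 tested), and ranged from 0 to 13 when 1 library was left out. Against the enzyme-only control the count ranged from 0 to 6 when 1 library was left out, and for the enzyme-only against the buffer-only control it rose from 0 to 2 with all 3 groups in 1 fit. Over all genes, the 6 called against the enzyme-only control became 30 and 0 with pseudocounts of 1 and 0.1, 22 and 0 with minimums of 10 and 1 edited Cs, 39 with protein-coding isoforms only, 28 with the replicate block, 1 with all groups in 1 fit or sites of both strands, 0 after scaling or with the minimum fraction, and from 0 to 1690 when 1 library was left out, the highest without enzyme-only replicate 3. The 2936 called against the buffer-only control became 15 after scaling and 641 with the minimum fraction. The 23 called for the enzyme-only against the buffer-only control became 35 with a pseudocount of 0.1, 8 and 5 with minimums of 1 and 10, 64 with all groups in 1 fit, 8 with the replicate block, 0 after scaling or with the minimum fraction, and 0 or 1 when 1 library was left out.

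Median log2 differences of the mitochondrial ribosomal protein genes moved more. Against the enzyme-only control, 0.47 turned to -0.23 with a minimum of 1 edited C and to -0.34 after scaling. It ranged from 0.10 to 0.41 when 1 library was left out. Against the buffer-only control, 1.48 became 0.71 and 0.0305 under the same settings and 1.24 with sites of both strands. For the enzyme-only against the buffer-only control, 0.97 became 0.76 and 0.37, with a range from 0.78 to 1.24 over the libraries left out. With the minimum fraction the values were 0.95, 3.11 and 2.20 in the 3 comparisons. These rested on only 4, 3 and 1 tested genes, and so do not describe the whole set. The cause was not tested.

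The UGCAUG ratio of RBFOX2-INSCRIBE, 1.80 as the mean of both libraries, was 1.45 with a window of 20 nt. With the minimum fraction it was 3.33, from 4.86 on 13 edited Cs in replicate 1 and 1.80 on 5 in replicate 2. Chosen after seeing the data, it was 2.46 against Cs of the same gene and region (2.53 and 2.39 in RBFOX2-INSCRIBE, 1.09 and 1.41 in the enzyme-only control, 2.44 and 1.37 in the buffer-only control) and 1.46 without MRPS9 (1.60 in buffer-only replicate 1). RBFOX2-INSCRIBE over enzyme-only in genes with long 3′ UTRs was 1.67 at a length of 2000 nt and ranged from 1.25 to 2.04 when an enzyme-only library was left out, and in the other genes it was 0.796 at 500 nt and ranged from 0.864 to 1.23.

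The replicate field numbers libraries 1 and 2 in every group, but libraries with the same number did not deviate together (correlations 0.11, 0.03 and -0.04 over genes). With this number as a replicate block, 0, 14 and 0 mitochondrial ribosomal protein genes were called in the 3 comparisons, the same counts as without it, and the medians stayed at 0.47, 1.48 and 0.97. Of all alternatives run, 72 left a result in place and 30 moved it. Counts of called genes that were 0 and stayed at 0 are among the 72, so the tally does not measure robustness.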
